A study of Homo sapiens with 4 samples.

Results

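The S100 genes encode small calcium-binding proteins, and 10 of them were followed here in RNA-seq of SW620 cells, a colorectal cancer cell line from a lymph node metastasis. The members were S100A2, S100A3, S100A4, S100A6, S100A10, S100A11, S100A13, S100A14, S100A16 and S100P, found by gene name among the 33845 gene rows of the table. They were selected on the GAP43 against control values of these same libraries, so their changes are given as a description, without a test. The groups were 2, each with 2 libraries: SW620 cells stably transfected with a Flag-GAP43 plasmid, and SW620 cells stably transfected with a control plasmid. GAP43 is attached to the inner face of the plasma membrane and is abundant in the growth cones of neurons. The GAP43 plasmid carries neomycin resistance, and whether the stable cells were pools or single clones is not given in the sources used here. No source states that the libraries of a group came from separate cultures, so the spread between them may be technical.

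S100 proteins carry a pair of EF-hands, the helix-loop-helix folds that hold calcium, and most work as dimers. Calcium opens a surface through which the dimer grips a target such as an annexin, a myosin heavy chain or p53. Some S100 proteins are also secreted and then act on cell surface receptors such as AGER (RAGE). Most of the genes lie side by side in the epidermal differentiation complex of chromosome 1q21, and S100A4 and S100P are widely studied in metastasis and in digestive tract tumors.

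The level of a gene is given as FPKM, a fragment count corrected for library depth and gene length, so that levels can be compared between genes of different length. Multiplied by gene length, the values above 0 came out as whole fragments (within 0.01) for 100% of them in each library, with 17473071 to 21883137 fragments per library. GAP43 replicate 2 had the fewest. It also had less of the transfected gene than GAP43 replicate 1. GAP43 itself stood at 4.40 and 4.14 FPKM with the control plasmid and at 16.3 and 9.89 FPKM with GAP43. The epithelial keratins KRT8, KRT18 and KRT19 and EPCAM were abundant, whereas KRT20 and CEACAM5, markers of differentiated colon epithelium, were low. A list of 14 colorectal epithelial markers, 9 of which had a mean of at least 1 FPKM, summed to 1795 and 2511 FPKM in the control and 1895 and 1806 FPKM with GAP43. Markers of leukocytes summed to 12.5 to 18.6 FPKM, of fibroblasts to 6.54 to 9.77 FPKM and of endothelium to 2.02 to 2.62 FPKM over the 4 libraries. MS4A1 (B cells), COL3A1 (fibroblasts) and KDR (endothelium) were listed at 0 in all of them, each as the 1 such gene of its list. Other markers were expressed, with 2 of leukocytes, 1 of fibroblasts and 1 of endothelium averaging 1 FPKM or more. The leukocyte gene CD4 had a mean log2(FPKM + 1) of 3.51 with the control plasmid and 3.52 with GAP43.

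Of the 10 members, 9 lie on chromosome 1 between 151982915 and 153631360 (GRCh38), all on the minus strand, and S100P lies on chromosome 4 from 6693069 to 6697170 on the plus strand. S100A10 and S100A11 sit 38115 bases apart. The other members on chromosome 1, from S100A6 to S100A13, fill a stretch of 96.8 kb, in which S100A16 and S100A14 are 1109 bases apart. The letters just before the RefSeq start sites are shown for the 3 members with the lowest GAP43 to control ratio, S100A14, S100A2 and S100A16, and for S100A6, S100A4 and S100P. Each line gives the last 150 bases before the start on the gene's own strand, 5′ to 3′ (RefSeq, GRCh38.p14). Capitals mark matches on either strand to the letters TATAAA, known as the TATA box. They also mark the GC box, whose letters were taken as GGGCGG. The third motif in capitals is the binding motif of the transcription factor AP-1, which was searched as TGANTCA.
S100A14, chr1:153616326-153616475, minus strand: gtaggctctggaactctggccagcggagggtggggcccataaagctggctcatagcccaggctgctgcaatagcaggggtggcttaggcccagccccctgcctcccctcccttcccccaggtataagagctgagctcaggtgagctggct
S100A2, chr1:153565845-153565994, minus strand: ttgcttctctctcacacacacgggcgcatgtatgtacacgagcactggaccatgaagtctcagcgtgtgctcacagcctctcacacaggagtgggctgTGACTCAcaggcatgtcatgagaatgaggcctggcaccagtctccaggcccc
S100A16, chr1:153613138-153613287, minus strand: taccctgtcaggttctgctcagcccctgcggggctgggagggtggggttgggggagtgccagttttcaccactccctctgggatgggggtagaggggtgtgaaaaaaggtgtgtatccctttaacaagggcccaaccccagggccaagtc
S100A6, chr1:153535992-153536141, minus strand: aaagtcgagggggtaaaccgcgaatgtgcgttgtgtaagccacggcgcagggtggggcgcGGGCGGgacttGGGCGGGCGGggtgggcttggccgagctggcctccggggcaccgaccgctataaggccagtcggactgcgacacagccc
S100A4, chr1:153545807-153545956, minus strand: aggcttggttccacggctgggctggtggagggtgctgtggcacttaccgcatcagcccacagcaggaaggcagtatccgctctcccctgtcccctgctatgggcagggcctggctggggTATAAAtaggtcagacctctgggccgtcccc
S100P, chr4:6693728-6693877, plus strand: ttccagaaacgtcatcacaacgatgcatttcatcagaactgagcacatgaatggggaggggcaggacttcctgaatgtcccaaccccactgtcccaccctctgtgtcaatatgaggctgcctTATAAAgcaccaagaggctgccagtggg

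All 10 members matched the RefSeq promoter table, and over 250 bases before the start they fell into CpG-poor and CpG-rich windows. S100A16 had 1 CpG, S100A14, S100A2, S100A3 and S100P had 4 each and S100A4 had 7. S100A11 and S100A13 had 15 each, and S100A6 and S100A10 had 24 each, against a median of 11 over 27305 promoters. The RefSeq start of S100A13, at 153634361, lies outside the span behind its FPKM, which ends at 153631360. The starts of the other members lie within their spans. TATAAA was found in S100A4, at -31 from the start, and in S100P, at -28, and in 11.1% of all promoters. GGGCGG was found in S100A3, S100A6, S100A10, S100A11 and S100A13 and in 42.3% of all promoters. S100A6 held it 3 times, and a pair of these matches overlap. TGANTCA was found in S100A2, at -52, and in S100A3, at -225, and in 6.60% of all promoters. The CCAAT box was found in S100A3 and in 33.0% of all promoters, and the E-box, searched as CACGTG, in none of the members and in 6.49%. A letter match is not a binding site, and factor binding was not measured.

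In control SW620 cells the members spanned a wide range of levels. S100A4, which binds nonmuscle myosin, and S100A6, which binds CACYBP, were highest, at 858 ± 106 and 774 ± 163 FPKM (SD, n = 2). These neighbours in the order did not differ beyond their spread. S100A11, a partner of annexin A1, followed at 415 ± 2.40 FPKM and S100A10, the partner of annexin A2, at 239 ± 27.2 FPKM. S100A16 had 189 ± 35.6 FPKM, and its higher library, at 214.5 FPKM, lay just below the lower S100A10 library, at 219.9 FPKM. S100P, a secreted member that also binds ezrin, had 64.9 ± 15.7 FPKM. S100A3, S100A2 and S100A14 had 31.9 ± 6.50, 31.5 ± 9.51 and 30.2 ± 14.2 FPKM and could not be put in an order. S100A13, which takes part in the release of FGF1 and IL1A, was lowest at 2.21 ± 0.0832 FPKM. Among 16872 protein-coding genes S100A4 ranked 25 and 33, and S100A6 ranked 36 and 30, in control replicates 1 and 2.

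**Figure D1:**
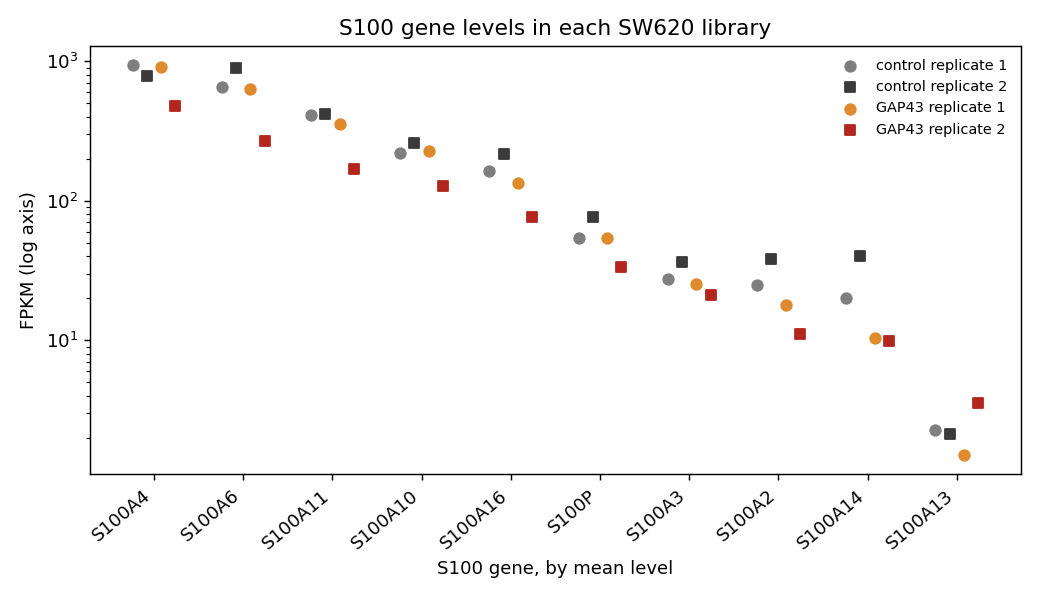
FPKM on a log axis for each of the 10 S100 genes, ordered by mean level, with 1 point per library (gray and black for control, orange and red for GAP43 libraries). GAP43 replicate 2 is the lowest library for every gene but S100A13, while GAP43 replicate 1 is well below both controls for S100A14.

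The summed level of the 10 genes was 2517 and 2755 FPKM in control replicates 1 and 2, 2363 FPKM in GAP43 replicate 1 and 1203 FPKM in GAP43 replicate 2. As a share of all recovered fragments this was 0.264% and 0.275% in the control and 0.252% and 0.145% in the GAP43 libraries. GAP43 replicate 2 stood apart, while GAP43 replicate 1 was just below the lower control. In RNA of bulk cells, fewer cells that express a gene and less RNA per cell cannot be told apart. S100A4 made up 37.1%, 28.4%, 38.4% and 39.9% of the summed S100 FPKM in control replicates 1 and 2 and GAP43 replicates 1 and 2. S100A6 made up 26.2%, 32.3%, 26.6% and 22.4%. S100A14 made up 0.802% and 1.46% in the controls and 0.442% and 0.817% in the GAP43 libraries, so its share of the S100 sum in GAP43 replicate 2 was close to that in control replicate 1.

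**Figure D2:**
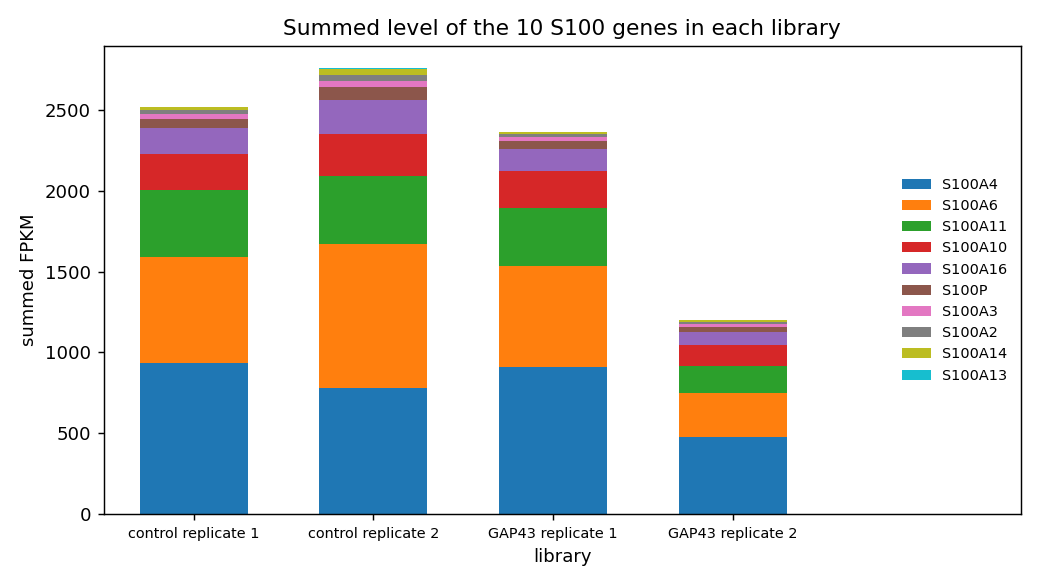
Stacked bars of FPKM for the 10 S100 genes in each library, starting at 0. The sum lies between 2363 and 2755 FPKM in 3 libraries and at 1203 FPKM in GAP43 replicate 2, and S100A4, S100A6 and S100A11 make up most of every bar.

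The comparison asks which S100 transcripts differ in cells that carry the GAP43 plasmid. limma was run on log2(FPKM + 1) over the 13507 genes whose mean over the libraries reached 1 FPKM, which all 10 members did. On this scale the change of a low gene is understated. Both GAP43 libraries lay below both controls for 6 of the 10 members and above both for none, beside 24.1% of all genes tested below and 17.1% above. The count below varied with level, at 220 of 321 protein-coding genes with a mean of 100 FPKM or more. At an unadjusted p under 0.05 by limma 3 members were lower, S100A14, S100A2 and S100A16, beside 2.84% of all genes, and none was higher, beside 3.05%. The members were selected on this contrast, so their counts, here and under other settings, are a description and not a test. No gene of the table passed a Benjamini-Hochberg adjusted p under 0.05 (percent called 0), with 383 lower and 412 higher at an unadjusted p. After division by the sum of FPKM this split was 213 lower and 577 higher, and the median of all genes moved from -0.04 to 0.07. Voom on the recovered fragments gave no adjusted call either, while without control replicate 1 there were 15. The median log2 fold change of the members was -0.66, beside -0.04 for all genes tested. Against the mean of the controls, GAP43 replicate 1 lay at -0.29 and GAP43 replicate 2 at -1.10, while the control libraries themselves lay at -0.20 and 0.20. Leaving out a library leaves a group of 1, whose spread is then taken from the other group, so the counts that follow describe these fits and do not show how firm a member is. Without GAP43 replicate 1, 9 members passed as lower and S100A13 as higher, in a fit with 2513 lower and 1565 higher genes of 13507. Without GAP43 replicate 2 the lower members were 2 (382 genes), without control replicate 1 again 2 (231 genes), and without control replicate 2 only S100A14 (77 genes).

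**Figure D3:**
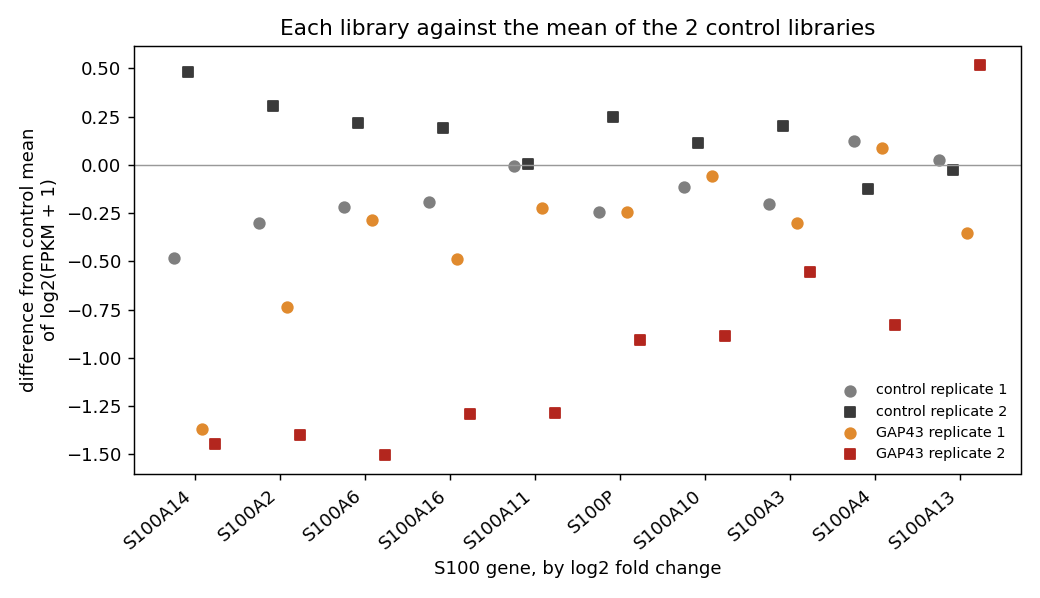
Difference of each library from the control mean on the log2(FPKM + 1) scale for the 10 S100 genes, ordered by log2 fold change, with 1 point per library. S100A14 is the 1 gene for which both GAP43 libraries lie below -1.3, and for S100A10, S100P and S100A4 the orange points of GAP43 replicate 1 lie within the range of the controls.

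S100A14, an epithelial S100 protein tied to cell migration and proliferation (ENSG00000189334, chromosome 1 from 153614255 to 153616986), showed the lowest ratio of the members. It stood at 20.2 and 40.2 FPKM with the control plasmid and at 10.4 and 9.83 FPKM with GAP43, from 544, 993, 294 and 245 fragments. The GAP43 libraries were close to each other, while the control libraries differed from each other by a factor of 1.99. On the log2 scale the difference was -1.41 (standard error 0.32), and the mean level was 0.335 times that of the controls. GAP43 replicate 1 had 0.517 times the FPKM of the lower control. The difference ranged from -1.89 without control replicate 1 to -0.93 without control replicate 2, so its size rested on which control was used. Both GAP43 libraries lay below both controls, so leaving out a library could not change its direction.

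S100A16, the direct neighbour of S100A14, is expressed widely and is related to it in sequence (ENSG00000188643, chromosome 1 from 153606886 to 153613145). It stood at 164 and 214.5 FPKM with the control plasmid and at 134 and 76.2 FPKM with GAP43. The groups did not overlap, but the GAP43 libraries were farther apart than those of S100A14. The log2 fold change was -0.89 (standard error 0.33), at -0.49 in GAP43 replicate 1 and -1.29 in GAP43 replicate 2. S100A16 no longer passed the unadjusted p with no filter on low values, or without GAP43 replicate 2, control replicate 1 or control replicate 2. The ratio of S100A14 to S100A16 FPKM within a library was 0.123 and 0.188 in the controls and 0.0782 and 0.129 in the GAP43 libraries. It was lowest in GAP43 replicate 1, and GAP43 replicate 2 lay between the controls.

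S100A2, known as a p53 and p63 target and mainly nuclear in epithelial cells (ENSG00000196754, chromosome 1 from 153561108 to 153567890), stood at 24.7 and 38.2 FPKM with the control plasmid and at 18.0 and 11.1 FPKM with GAP43. The 4 values were well apart, and both GAP43 libraries were below both controls. Its log2 fold change was -1.07 (standard error 0.30), at -0.74 in GAP43 replicate 1 and -1.40 in GAP43 replicate 2. Control replicate 2 was 1.54 times as high as control replicate 1. For S100A14, S100A2 and S100A16, the highest of the 4 values was that of control replicate 2. The same held for S100A3, S100A6, S100A10, S100A11 and S100P, but not for S100A4 or S100A13.

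S100A6 (ENSG00000197956, chromosome 1 from 153534599 to 153536244) stood at 658 and 889 FPKM with the control plasmid and at 628 and 269.6 FPKM with GAP43. GAP43 replicate 1 reached 0.954 times the lower control, so the groups were separated by a small gap there, while GAP43 replicate 2 was far below. Its log2 fold change was -0.89 with a standard error of 0.45, the largest error among the members, and it ranged from -1.50 without GAP43 replicate 1 to -0.28 without GAP43 replicate 2. S100A11 (ENSG00000163191, chromosome 1 from 152032506 to 152047907) stood at 413 and 417 FPKM with the control plasmid and at 356 and 169.6 FPKM with GAP43. Its controls differed by a factor of 1.01 and both GAP43 libraries lay below them. The log2 fold change of S100A11 was -0.75 (standard error 0.39), and GAP43 replicates 1 and 2 lay at -0.22 and -1.29.

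S100A4 (ENSG00000196154, chromosome 1 from 153543613 to 153550136) stood at 933 and 784 FPKM with the control plasmid and at 907 and 480 FPKM with GAP43. It was the highest member in every library but control replicate 2, where S100A6 was higher. GAP43 replicate 1 lay between the controls, so the groups overlapped. GAP43 minus control was -0.37 on the log2 scale (standard error 0.39), and without GAP43 replicate 2 it was 0.09, with the opposite sign. S100A10 (ENSG00000197747, chromosome 1 from 151982915 to 151994390), which does not bind calcium and stays in the open form, stood at 219.9 and 258 FPKM with the control plasmid and at 229 and 128 FPKM with GAP43. Here too GAP43 replicate 1 lay between the controls. Its log2 fold change was -0.47 (standard error 0.33), and -0.06 without GAP43 replicate 2.

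S100P (ENSG00000163993) stood at 53.7 and 76.0 FPKM with the control plasmid and at 53.8 and 33.6 FPKM with GAP43. GAP43 replicate 1 was level with control replicate 1. Its log2 fold change was -0.58 (standard error 0.30), at -0.24 in GAP43 replicate 1 and -0.91 in GAP43 replicate 2. S100A3, best known from the hair cuticle (ENSG00000188015, chromosome 1 from 153547329 to 153549372), stood at 27.3 and 36.5 FPKM with the control plasmid and at 25.4 and 21.1 FPKM with GAP43, with a log2 fold change of -0.43 (standard error 0.22), between -0.63 and -0.23 when 1 library was left out. Its groups did not overlap, by a narrow gap. In GENCODE release 29 the whole span of S100A3 lies within that of S100A4 on the same strand, with 0 exon bases shared. S100A3 had 0.0292 and 0.0465 times the S100A4 FPKM in the controls and 0.0280 and 0.0440 times in the GAP43 libraries, and the part of unspliced S100A4 RNA in these reads was not tested.

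S100A13 (ENSG00000189171, chromosome 1 from 153618787 to 153631360) was the 1 member with a log2 fold change above 0. It stood at 2.27 and 2.15 FPKM with the control plasmid and at 1.51 and 3.58 FPKM with GAP43, from 106, 92, 74 and 155 fragments. GAP43 replicate 1 was the lowest library and GAP43 replicate 2 the highest, so the groups overlapped. The log2 fold change was 0.08 (standard error 0.30), and without GAP43 replicate 2 it was -0.35. Its span overlaps that of S100A1 on the other strand with 235 shared exon bases, and reads there cannot be assigned without strand. S100A1, a regulator of calcium handling in muscle, stood at 0.516 and 0.581 FPKM with the control plasmid and at 0.629 and 0.744 FPKM with GAP43. Both GAP43 libraries were above both controls, from 33 to 44 fragments each, and S100A1 lay under the filter.

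Of 11 other S100 genes listed, 6 were in the table and only S100A5 reached the filter. S100A5, the neighbour of S100A6 and a gene of olfactory neurons, stood at 3.26 and 3.37 FPKM with the control plasmid and at 2.43 and 1.83 FPKM with GAP43, with a log2 fold change of -0.47 (standard error 0.19). It rested on 28 to 54 fragments and lay below both controls in both GAP43 libraries. The inflammatory gene S100A9 had 3 fragments in GAP43 replicate 2 (0.266 FPKM) and 0 in the other libraries, where 0 fragments allow up to 0.236 to 0.269 FPKM (3 fragments, for counting error only). The skin gene S100A7 had 0 fragments in all 4 libraries, which allows up to 0.254 to 0.290 FPKM. The glial gene S100B had 0 to 3 fragments and the intestinal gene S100G 1 to 3. Of the fused-type genes, in which an S100 domain heads a long repeat protein of the skin, FLG, TCHH, HRNR and FLG2 were in the table at 0 to 0.378 FPKM and none was tested.

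S100 proteins act through partners, and these were read beside them. Of 26 known binding partners, a list that shares annexins with the next, 21 were tested. A log2 fold change below 0 was found for 17, beside 7492 of all 13507 genes tested. None passed an unadjusted p under 0.05 by limma, beside 2.84% of all genes lower and 3.05% higher. Both GAP43 libraries lay below both controls for 6 of the 21, beside 24.1% of all genes. The median was -0.21, at -0.03 for GAP43 replicate 1 and -0.28 for the second. Each was nearer 0 than that of the S100 members, which were selected on this contrast. After division by the sum of FPKM the median of the partners was -0.10, as it was with no filter on low values. EZR (ezrin), which links membrane and actin and binds S100P, stood at 183 and 251 FPKM with the control plasmid and at 202 and 132 FPKM with GAP43, which overlapped. MYH9, the nonmuscle myosin heavy chain bound by S100A4, stood at 133 and 168 FPKM with the control plasmid and at 153 and 120 FPKM with GAP43. STIP1, a co-chaperone, stood at 105 and 100.2 FPKM (control) and 100.3 and 83.9 FPKM (GAP43).

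Annexins, the membrane-binding proteins that S100 dimers bridge, also had their lowest median in GAP43 replicate 2. Their median over 9 tested genes was -0.51, and GAP43 replicates 1 and 2 lay at -0.15 and -0.84. Below 0 were 7 and above 0 were 2, beside 7492 of all 13507 genes tested below 0. None passed an unadjusted p under 0.05 by limma, beside 2.84% of all genes lower and 3.05% higher. Both GAP43 libraries lay below both controls for 3 of the 9, beside 24.1% of all genes. ANXA2 stood at 139 and 173 FPKM with the control plasmid and at 139.5 and 71.7 FPKM with GAP43. The ratio of S100A10 to ANXA2 FPKM was 1.59 and 1.49 in the controls and 1.64 and 1.79 in the GAP43 libraries, so both partners were low together in GAP43 replicate 2. ANXA1 stood at 50.5 and 58.2 FPKM (control) and 45.7 and 11.8 FPKM (GAP43), and the ratio of S100A11 to ANXA1 was 8.19 and 7.16 in the controls and 7.78 and 14.4 in the GAP43 libraries. ANXA1 was thus lower relative to S100A11 in that library. ANXA3 stood at 39.8 and 57.6 FPKM (control) and 47.6 and 20.3 FPKM (GAP43), and ANXA5 at 42.8 and 50.2 FPKM (control) and 44.5 and 23.4 FPKM (GAP43). GAP43 replicate 1 lay between the controls for both.

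Other EF-hand genes gave a median of -0.25 over 33 tested of 40 listed, at -0.06 in GAP43 replicate 1 and -0.42 in GAP43 replicate 2, and it was -0.14 after division by the sum of FPKM. Of these 26 were below 0, beside 7492 of all 13507 genes tested. CETN2, a centriole protein, was the 1 gene with an unadjusted limma p under 0.05, beside 2.84% of all genes lower and 3.05% higher. It stood at 23.0 and 23.7 FPKM (control) and 16.9 and 9.51 FPKM (GAP43). ACTN4, an actin crosslinker, stood at 255 and 285 FPKM with the control plasmid and at 267 and 256 FPKM with GAP43, and its level hardly moved. MYL12B, a myosin light chain, stood at 190 and 261 FPKM (control) and 209 and 140 FPKM (GAP43). LCP1, an actin bundler, stood at 85.2 and 137 FPKM (control) and 95.3 and 75.3 FPKM (GAP43). EFHD2 stood at 84.4 and 114 FPKM (control) and 76.1 and 65.4 FPKM (GAP43), with both GAP43 libraries below both controls.

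**Figure D4:**
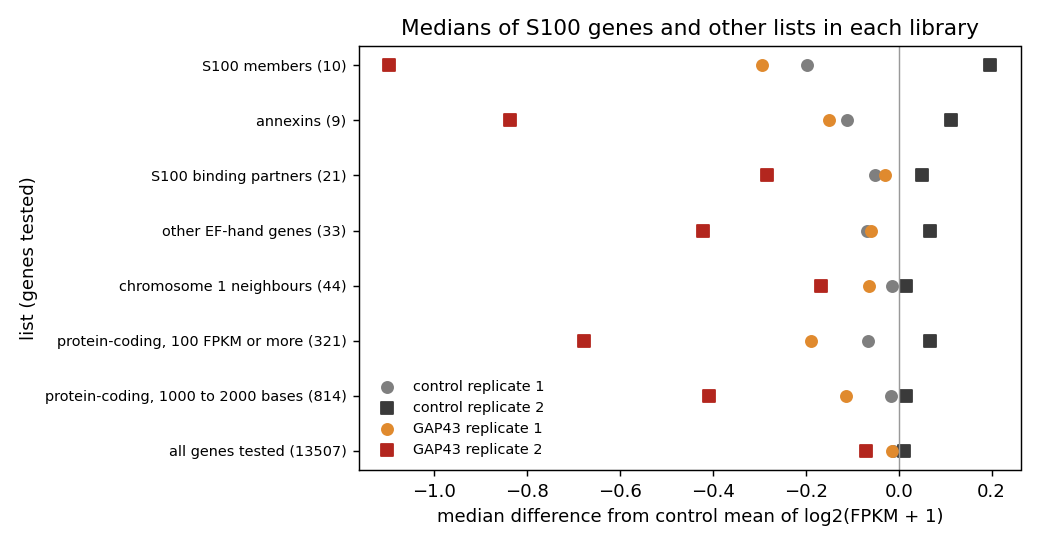
Median difference from the control mean on the log2(FPKM + 1) scale in each library (points) for the S100 members and for other lists, with the number of genes tested in brackets. GAP43 replicate 2 lies at -1.10 for the S100 members, -0.84 for the annexins and -0.68 for protein-coding genes of 100 FPKM or more, and at -0.07 for all genes tested.

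The median difference varied with level and with gene length. Protein-coding genes with a mean of 100 FPKM or more, as 5 of the members have, had a median log2 fold change of -0.44 over 321 genes, and GAP43 replicates 1 and 2 lay at -0.19 and -0.68. Of those genes 220 lay below both controls, as did S100A6, S100A11 and S100A16, while S100A4 and S100A10 did not. Genes at 10 to 30 FPKM, where S100A14, S100A2 and S100A3 fall, had a median of -0.15 over 3020 genes. Of these, 1100 lay below both controls, as did all of those members. Gene models of 1000 to 2000 bases, the range of 6 members, had a median of -0.25 over 814 genes, and those of 5000 bases or more -0.02. Gene models under 1000 bases, as S100A6, S100A11 and S100A3 have, had a median of -0.16 over 150 genes, so the medians did not follow length throughout. Squamous epithelial markers, genes of stratified epithelia, summed to 185 and 270.1 FPKM in the control and 175 and 128 FPKM with GAP43. Of 20 listed, 14 were in the table and only 6 averaged 1 FPKM or more. Of these 6, 5 were below 0 and 1 above, beside 7492 of all 13507 genes tested below 0. Both GAP43 libraries lay below both controls for 2 of the 6, beside 24.1% of all genes. The part of level, length and epithelial state in the S100 values was not tested.

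Along chromosome 1, the other genes near the S100 block had a median near 0, with more of them lower than higher. Of 68 protein-coding genes that start within 1 Mb of a member, 44 were tested. Their median was -0.08, 0.03 after division by the sum of FPKM and -0.21 with a filter at a mean of 5 FPKM. Below 0 were 29, beside 7492 of all 13507 genes tested, and none passed an unadjusted p under 0.05 by limma. The 44 ran from -0.65 for RPS27, a ribosomal protein, to 0.36 for SELENBP1, a selenium-binding protein. Both GAP43 libraries lay below both controls for 18 and above both for 6, beside 24.1% and 17.1% of all genes tested. S100A14, S100A2, S100A16, S100A6 and S100A11 each had a lower log2 fold change than all 44. The members were selected on this contrast and the neighbours by position, so this order is a description and not a test. RPS27 stood at 1307 and 1657 FPKM with the control plasmid and at 1211 and 721 FPKM with GAP43, and ILF2, an RNA-binding protein, 143 and 162 FPKM (control) and 129 and 85.4 FPKM (GAP43). PSMB4, a proteasome subunit, stood at 96.0 and 95.7 FPKM (control) and 87.1 and 63.2 FPKM (GAP43), and JTB, a membrane protein, 81.9 and 79.0 FPKM (control) and 74.5 and 51.4 FPKM (GAP43). All of these had both GAP43 libraries below both controls. Within the block, S100A13 at 0.08 lies only 1800 bases from S100A14 at -1.41. The 0.08 is the mean of opposite values, -0.35 in GAP43 replicate 1 and 0.52 in GAP43 replicate 2, from 74 and 155 fragments.

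**Figure D5:**
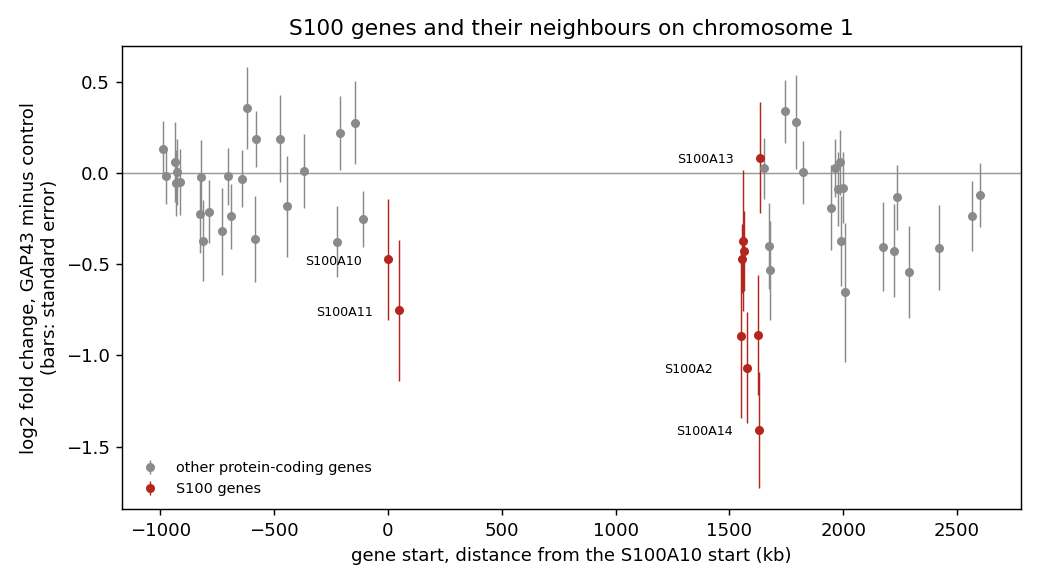
Log2 fold change (GAP43 minus control) with its standard error for the tested S100 genes (red) and the 44 other protein-coding genes nearby (gray), by distance of the gene start from that of S100A10 in kb. S100A14, S100A2, S100A16, S100A6 and S100A11 lie below all gray points, while S100A13 lies at 0.08. The S100 members were selected on this contrast and the gray genes by position.

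With S100 genes left out, the 5 protein-coding genes whose pattern over the 4 libraries was nearest to that of S100A14 were G0S2, KRT6A, AHNAK2, MTHFD2 and PCK2. Likeness was the root mean square distance between log2(FPKM + 1) values centered on each gene's own mean, which was 0.18, 0.19, 0.29, 0.30 and 0.33 for these genes. Among the S100 members S100A2 was nearest, at 0.29 and so nearer than MTHFD2 and PCK2, followed by S100A16 at 0.42, and S100A13 was farthest, at 0.89. G0S2, an inhibitor of lipolysis, stood at 2.79 and 6.63 FPKM with the control plasmid and at 1.73 and 1.42 FPKM with GAP43, and KRT6A, a keratin of activated epithelium, 1.31 and 2.63 FPKM (control) and 0.418 and 0.297 FPKM (GAP43). AHNAK2, a large scaffold protein, stood at 1.83 and 3.70 FPKM (control) and 1.16 and 0.843 FPKM (GAP43). MTHFD2 and PCK2, mitochondrial enzymes of folate and phosphoenolpyruvate metabolism, stood at 17.8 and 35.5 FPKM and at 13.7 and 25.2 FPKM with the control plasmid. With GAP43 they stood at 15.8 and 11.4 FPKM and at 11.3 and 9.83 FPKM.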

How the data were processed

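Poly(A) RNA was fragmented, primed with random hexamers and sequenced as paired ends. The authors deposited FPKM values per gene for 4 libraries, and hg19, Cuffdiff, Cufflinks 1.1 and TopHat2 2.0.13 are named, without a role, in the submitters' processing notes. How fragments were counted, on which annotation and with what strand setting is not given in the sources used here. GENCODE release 29 held 33057 of the 33845 IDs and gave 96.4% of them an identical start, so coordinates are GRCh38. For each S100 gene the gene length equalled the union of its GENCODE exons.

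Genes averaging 1 FPKM or more were fitted as log2(FPKM + 1) with limma 3.58.1 (trended prior variance) in R 4.3.3, 2-sided, with Benjamini-Hochberg adjustment over 13507 genes. The fit was tested on simulated data, in which libraries of a group differed only by depth and by random noise, with the same dispersion for every gene. They held no level-dependent shift of a library such as that of GAP43 replicate 2. How the fit behaves under such a shift was not tested. With 2 libraries against 2, no gene can pass an exact permutation test, so none is given. Limits from a count of 0 cover counting error only, as no molecular identifiers were used. All pairs of libraries differed beyond sampling noise, with a chi-square per degree of freedom of 15.0 to 85.8. Summaries used Python 3.11.15 and pandas 2.3.3, and figures matplotlib 3.10.9.

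Members and lists were chosen with earlier results of these data known. Named were all S100 genes in the table, the 4 highest and up to 4 genes at an unadjusted p under 0.05 of each list, and the 5 nearest to S100A14. Alternatives were another pseudocount, filters, scalings, a constant prior, a replicate block, protein-coding genes alone, voom on recovered fragments and leaving out each library. A crossed replicate block was chosen after seeing the data.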

Additional observations from a re-analysis of the deposited data

How the results depend on the processing

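The median log2 fold change of the S100 members, -0.66, ran from -1.10 to -0.29 when 1 library was left out, and from -0.75 to -0.55 under another pseudocount, the stricter filter, the scalings and voom. The other alternatives cannot move it. S100A4 and S100A13 changed sign without GAP43 replicate 2, to 0.09 and -0.35. Leaving out 1 library gave 0 to 15 genes at an adjusted p under 0.05, 270 to 1565 higher and 77 to 2513 lower genes at an unadjusted p, and 1 to 9 members lower. The 15 genes, among them S100A14, were called without control replicate 1, and the 9 members without GAP43 replicate 1. The binding partner median ran from -0.28 to -0.03 and the chromosome 1 neighbour median from -0.17 to -0.06. No filter gave 1070 higher and 676 lower genes, 2 members lower (S100A16 lost) and a neighbour median of -0.01. A filter at a mean of 5 FPKM gave 155 higher genes and a neighbour median of -0.21, with S100A13 not tested. Division by the sum of FPKM gave 213 lower genes and a neighbour median of 0.03. Protein-coding genes alone gave 223 higher genes. Voom gave 266 higher and 618 lower genes and 5 members lower, S100A11 and S100A6 besides S100A14, S100A2 and S100A16. The replicate block called 152 genes at an adjusted p, S100A14 and S100A2 among them, with 655 higher at an unadjusted p, but same-numbered libraries share only a number. Their deviations correlated at -0.16 over 13507 genes, and a crossed replicate block, chosen after seeing the data, gave 668 higher and 737 lower genes, 0 adjusted and 5 members lower. The cause of these shifts was not tested. S100A13 and S100A5 rest on few fragments.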
